A study of Mus musculus with 18 samples.

Results

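The 10 genes described here are regulators of T cell quiescence and of the naive T cell state: the Krüppel-like factors Klf2 and Klf4, the forkhead factors Foxo1 and Foxp1, the DNA-binding factors Lef1, Tcf7 and Bach2, the interleukin-7 receptor chain Il7r, and the antiproliferative genes Tob1 and Btg1. They were chosen by name, with earlier results of these data known. Each was read from the probe sets that GEO's platform annotation pairs with that 1 gene. Where a gene had several, the brightest one on average was the main one. Of the 10 genes, 9 had such a probe set, 21 in all, among 12393 genes with one on the array. All 9 reached log2 4 on at least 3 arrays, as did 6873 genes in all, and these were tested. Tcf7 had no probe set of its own here and was not analysed.

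The samples were CD4+ T cells, isolated by negative selection from mice of 6 to 8 weeks, and their RNA was read on 18 Affymetrix Mouse Genome 430A 2.0 arrays. The 6 groups held 3 arrays each, which the series' design text calls independent biological replicates. Wild-type cells (WT) were taken resting, straight from the animal, or were stimulated for 12 h with 10 µg of antibodies to CD3 and CD28, which engage the T cell receptor complex and its costimulator. Cells of ERRa-/- mice (ERRKO), which lack the orphan nuclear receptor ERRα and are called knockout cells below, were taken in the same resting and stimulated states. The other wild-type cells were given 20 µM XCT790, an inverse agonist of ERRα, or 20 µM compound A, described by the submitters as an inhibitor of ERRα and known here by that name alone. The treatment protocol places both inhibitors in the stimulation, while the stimulation field of those 6 arrays says that there was none. Each inhibitor was therefore set against stimulated and against resting cells. The inhibitor arrays do carry an activation signal. Of 14 T cell activation and growth genes, 12 were higher with XCT790 and 13 with compound A than in resting wild-type cells, and none was lower. The labels do not say whether vehicle was added to the other groups, nor what part of the gene the knockout lacks.

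A resting naive T cell is held small and out of the cell cycle by active programmes. FOXO1, kept in the nucleus while PI3K and AKT are quiet, drives Klf2 and Il7r; KLF2 itself sustains S1pr1, the receptor that lets the cell leave lymph nodes and circulate. FOXP1 holds back interleukin-7 receptor expression and cell growth, TCF1 (the product of Tcf7) and LEF1 maintain T cell identity and the naive programme, and BACH2 represses effector genes. TOB1 and BTG1 belong to the family of antiproliferative proteins that bind the CCR4-NOT deadenylase, the complex that shortens mRNA tails. Engagement of the T cell receptor switches on PI3K and AKT, which send FOXO1 out of the nucleus, and cells then enlarge and divide.

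The deposited values are log2 signals, and differences below are on that scale with their standard error. A difference passed where limma's p-value, adjusted over the 6873 genes of that comparison by Benjamini and Hochberg, was under 0.05. Esrra, the knocked-out gene, read 5.51, 5.25 and 5.51 in resting wild-type cells and 4.34, 4.65 and 4.65 in resting knockout cells; it was 1.83-fold lower in resting and 1.89-fold lower in stimulated knockout cells than in wild-type cells, with no overlap. Where its probes lie relative to the deletion is not given in the sources used here. T cell markers were high everywhere, with a mean log2 signal of 11.3 to 12.6 in the 6 groups. Cd8a was under log2 4 on every array, while Cd8b1, the other CD8 marker, reached it in every group. On the linear scale these 2 summed to 98.6 to 182 in resting wild-type and 33.4 to 89.0 in resting knockout cells. With XCT790 the sum was 96.6 to 223. Resting cells also held signal of other cell types: macrophage markers summed, on the linear scale, to 3991 to 7757 in resting wild-type and 5643 to 16742 in resting knockout cells, but to 45.5 to 89.0 on the 12 other arrays. All 4 tested erythroid markers and 6 of 8 neutrophil markers were higher in resting knockout than in resting wild-type cells, and 3 of 7 B cell markers were lower. The knockout arrays numbered 1 stood apart, with a mean correlation with their own group of 0.969 resting and 0.978 stimulated. A spike-in control, the 5′ end of the dap transcript, read 3.99 to 6.38 on the 6 arrays of untreated wild-type cells and 7.45 to 8.51 on all others, so every comparison of knockout or inhibitor with untreated wild-type cells crosses that split; its part in the results was not tested.

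Promoter sequence was examined for all 10 genes in RefSeq's GRCm38.p6 windows, from 250 bases before to 50 bases after a transcription start. The stretches before the start are shown for 2 pairs of genes whose signals moved together over the arrays, as described below. Btg1 (chr10:96616751-96617000) and Tob1 (chr11:94211204-94211453) are the antiproliferative pair, and Klf2 (chr8:72318812-72319061) and Lef1 (chr3:131110047-131110296) the pair that lay near resting levels with compound A. All 4 lie on the + strand and are written 5′ to 3′, with capitals on a FOXO motif.
Btg1: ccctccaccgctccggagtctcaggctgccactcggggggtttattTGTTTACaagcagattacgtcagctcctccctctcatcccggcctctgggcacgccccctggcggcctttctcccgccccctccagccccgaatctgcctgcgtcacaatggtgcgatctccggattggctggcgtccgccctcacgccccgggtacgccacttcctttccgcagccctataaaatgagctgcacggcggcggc
Tob1: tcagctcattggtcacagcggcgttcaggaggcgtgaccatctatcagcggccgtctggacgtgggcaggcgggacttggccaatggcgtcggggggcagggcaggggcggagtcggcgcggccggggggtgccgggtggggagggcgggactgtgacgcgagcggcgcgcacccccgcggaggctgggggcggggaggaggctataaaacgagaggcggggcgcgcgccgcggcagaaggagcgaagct
Klf2: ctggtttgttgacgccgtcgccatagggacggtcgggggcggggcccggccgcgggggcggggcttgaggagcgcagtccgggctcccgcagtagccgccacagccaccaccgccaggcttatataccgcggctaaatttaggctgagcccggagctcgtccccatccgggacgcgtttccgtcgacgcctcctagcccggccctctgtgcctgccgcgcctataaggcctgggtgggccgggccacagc
Lef1: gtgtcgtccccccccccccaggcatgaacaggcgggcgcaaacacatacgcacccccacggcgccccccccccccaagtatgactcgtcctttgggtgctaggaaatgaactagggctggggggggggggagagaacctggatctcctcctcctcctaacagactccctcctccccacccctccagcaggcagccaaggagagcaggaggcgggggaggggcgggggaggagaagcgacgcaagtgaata

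The FOXO motif TGTTTAC, searched on both strands, stood in the Btg1 stretch with its first base at -204 and in the window of Tcf7, and in 3.65% of the 32851 promoters of the table. The ERR response element TCAAGGTCA was found in 0 of the 10 genes' windows and in 0.423% of all promoters; its shorter core AAGGTCA, which the longer motif contains, was in that of Tcf7 and in 4.72% of all. For KLF factors GGGTGTGG matched in Tcf7 and in 3.56% of promoters. Of the TCF/LEF motifs, CTTTGTT matched in 2 windows of Foxp1 and in 5.85% of promoters, and CTTTGAT in none of the 10 genes and in 3.73%. The AP-1-like BACH2 motif TGACTCA was in none of the 10 genes and in 5.20% of promoters. These matches describe letters in a window and not binding.

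Stimulation of wild-type cells lowered 8 of the 9 measured genes and raised Bach2. The fall was deepest in Il7r and Klf4, and smallest in Foxp1. All 9 passed, in a comparison in which 75.4% of all tested genes did, 38.4% lower and 37.0% higher, so passing by itself does not set them apart. Their median difference was -1.88, against -0.01 over all tested genes. The 9 were chosen with earlier results of these data known, so this contrast is a description and not a test. The arrays of the 2 groups did not overlap for any of the 9, as for 83.2% of all tested genes. In such bulk samples, fewer cells of a type and less RNA per cell cannot be told apart. Nor, in either genotype, can stimulation and the 12 h outside the animal. Resting cells came straight from the animal, and no untreated group was kept that long without stimulation. Markers of T cells fell as well, 6 of 8 tested, with a median of -0.70, as did 6 of 7 of B cells and 5 of 7 of memory or effector T cells.

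**Figure D1:**
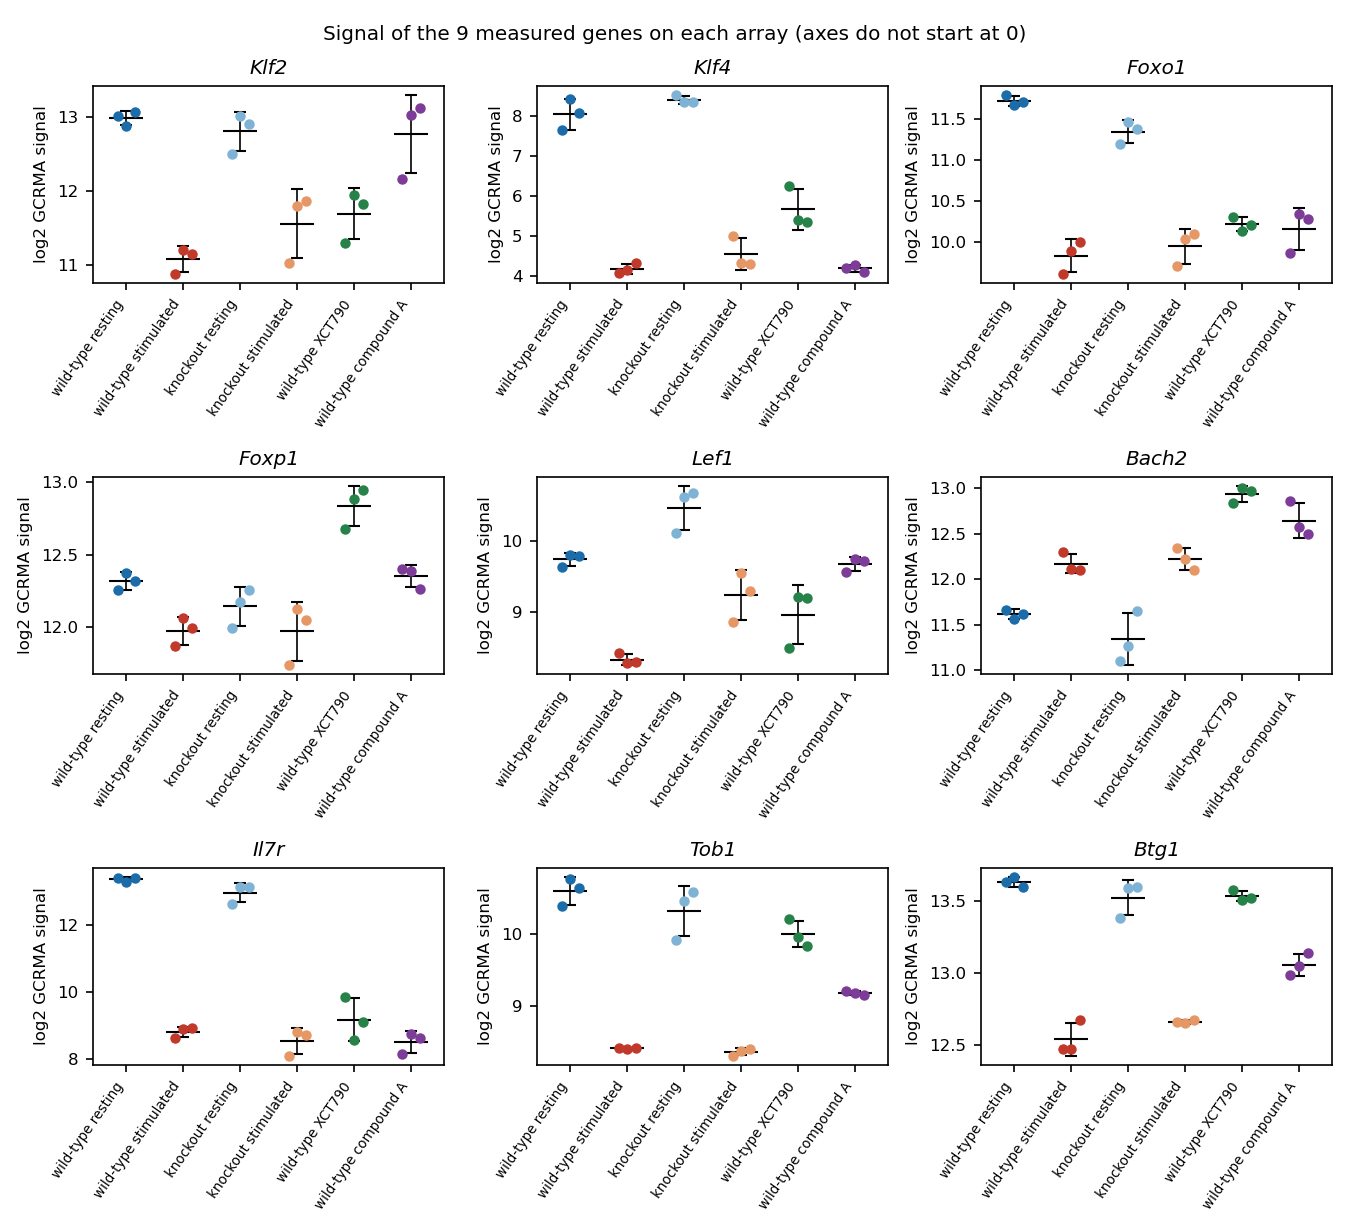
Log2 GCRMA signal of the main probe set of each of the 9 measured genes (vertical axis, which does not start at 0) on the 3 arrays of each group (points), with the group mean (long line) and SD (error bar). Il7r is at 13.29 to 13.40 in resting and 8.64 to 8.92 in stimulated wild-type cells, while Btg1 with XCT790, at 13.51 to 13.58, lies close to resting cells.

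Among the Krüppel-like factors, Klf2 read 13.02, 12.88 and 13.07 in resting wild-type cells and 10.89, 11.21 and 11.15 after stimulation. Every resting array lay above every stimulated one, a 3.75-fold fall (difference -1.91 ± 0.26, adjusted p = 1.1e-05). Klf4, a regulator of T cell proliferation that monocytes and macrophages also express, read 7.65, 8.42 and 8.08 in resting cells and 4.06, 4.14 and 4.31 in stimulated cells, just above the floor. It fell 14.7-fold (-3.88 ± 0.24, adjusted p = 2.48e-09). Beside this fall, all 7 tested macrophage markers fell, and all 9 with a probe set were under log2 4 on every array of stimulated wild-type cells; their part in the Klf4 result was not tested. The gene whose signal followed Klf4 most closely over the 18 arrays was Sgk1, with Hmox1, a haem oxygenase abundant in macrophages, next (Pearson's r of 0.98 for both).

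Both forkhead factors were lower after stimulation, to very different extents. Foxo1 read 11.79, 11.67 and 11.70 at rest and 9.62, 9.90 and 10.00 after stimulation, a 3.68-fold fall (-1.88 ± 0.14, adjusted p = 1.27e-08). Foxp1 read 12.25, 12.38 and 12.32 at rest and 11.87, 12.06 and 12.00 after stimulation. The gap between its groups was narrow, 1.26-fold (-0.34 ± 0.10, adjusted p = 0.00902). Most of its other probe sets did not pass, among them the second brightest, with a difference of -0.24 (adjusted p = 0.0511).

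Lef1 and Bach2 parted. Lef1 read 9.64, 9.81 and 9.80 in resting and 8.42, 8.28 and 8.30 in stimulated wild-type cells, a 2.66-fold fall (-1.41 ± 0.20, adjusted p = 1.59e-05). Bach2, the repressor of effector genes, was the 1 gene that rose: 11.67, 11.56 and 11.62 at rest, and 12.29, 12.12 and 12.11 after stimulation. Its resting arrays were all below its stimulated ones, 1.47-fold (0.56 ± 0.13, adjusted p = 0.00111).

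Il7r, the chain that lets naive T cells receive the survival signal of interleukin-7, read 13.39, 13.29 and 13.40 at rest and 8.64, 8.88 and 8.92 after stimulation. That was the largest change among the 9 genes, 23.4-fold (-4.55 ± 0.27, adjusted p = 1.81e-09), and the second Il7r probe set fell further (-5.82). The antiproliferative Tob1 read 10.39, 10.77 and 10.64 at rest and 8.41, 8.40 and 8.42 after stimulation, which is 4.56-fold lower (-2.19 ± 0.14, adjusted p = 4.1e-09). Its 3 stimulated arrays were nearly identical. Btg1 read 13.64, 13.67 and 13.60 at rest and 12.47, 12.48 and 12.67 after stimulation, 2.14-fold lower (-1.09 ± 0.07, adjusted p = 5e-09).

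Knockout cells went through the same kind of change. Stimulation lowered 7 of the 9 genes in them and raised Bach2, while Foxp1 did not pass (-0.17 ± 0.10, adjusted p = 0.154); 73.4% of all tested genes passed, 37.7% higher and 35.7% lower. Il7r fell 21.4-fold and Klf4 14.6-fold, Tob1 fell by 1.96, Foxo1 by 1.40, Klf2 by 1.24, Lef1 by 1.23 and Btg1 by 0.87, and Bach2 rose by 0.88. The arrays did not overlap for 8 genes, Foxp1 being the exception, as for 73.3% of all tested genes.

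**Figure D2:**
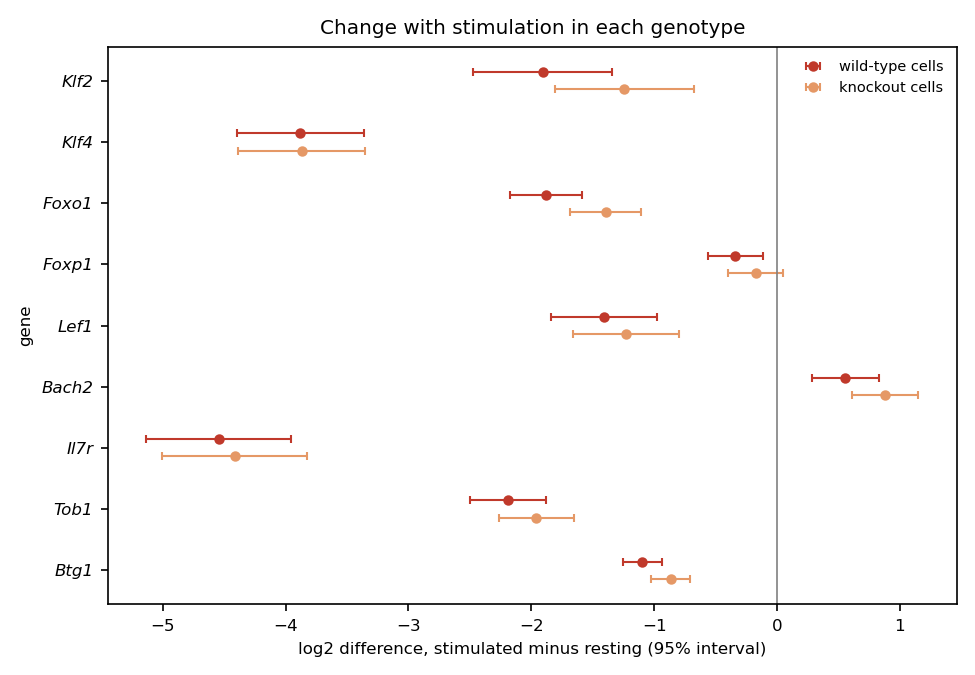
Log2 difference between stimulated and resting cells (horizontal axis) for the 9 measured genes (vertical axis) in wild-type and knockout cells, with unadjusted 95% intervals from the limma fit. The change of Klf4 is -3.88 and -3.87 in the 2 genotypes, and the intervals of Klf2 overlap although the estimates are -1.91 and -1.24.

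Whether the change with stimulation differed between genotypes was tested as an interaction. None of the 9 genes passed, where 0.902% of all tested genes did, 0.480% in 1 direction and 0.422% in the other. The differences in change ran from 0.01 for Klf4 (unadjusted 95% interval -0.72 to 0.74) to 0.67 for Klf2 (-0.13 to 1.46, adjusted p = 0.375). For Foxo1 (0.49, interval 0.07 to 0.90, adjusted p = 0.218) and Btg1 (0.23, interval 0.01 to 0.45, adjusted p = 0.269) the unadjusted interval left out 0. The second Btg1 probe set went the other way. Its resting and stimulated means were 13.15 and 12.33 in wild-type cells, and 13.18 and 12.23 in knockout cells. On the arrays numbered 2 and 3 alone, without the knockout arrays that stood apart, Klf2 (0.67, adjusted p = 0.0104) and Foxo1 (0.38, adjusted p = 0.0356) passed. This setting was not planned beforehand and leaves 2 arrays per group. With all arrays the Klf2 estimate was 0.67 too, and that of Foxo1 was 0.49. The share of all tested genes that pass in this setting is not given.

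Between genotypes in the same state, Lef1 was the 1 gene that passed, higher in knockout cells at rest and after stimulation. In resting knockout cells it read 10.12, 10.62 and 10.68, and in stimulated knockout cells 8.87, 9.56 and 9.29. Each knockout array lay above every wild-type array of its state. The rise was 1.65-fold at rest (0.72 ± 0.20, adjusted p = 0.0245) and 1.87-fold after stimulation (0.90 ± 0.20, adjusted p = 0.0288). These are 1 gene of 9 in comparisons in which 19.0% and 2.18% of all tested genes passed, and 6.74% and 1.59% passed higher; after stimulation 0.597% passed lower. The arrays did not overlap for 3 of the 9 genes at rest, where 38.9% of all tested genes did not, and for 2 of 9 after stimulation, where 32.8% did not. The Lef1 call was lost, with the difference between 0.62 and 0.75, without any 1 of the 3 resting wild-type arrays or of the resting knockout arrays 2 and 3. After stimulation it was lost, with the difference between 0.74 and 0.95, without any 1 of the 3 stimulated wild-type arrays or of the stimulated knockout arrays 2 and 3.

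On their main probe sets the other 8 genes did not pass between genotypes in either state. At rest their differences ran from -0.40 ± 0.27 for Il7r, which read 12.62, 13.13 and 13.13 in knockout cells, to 0.36 ± 0.24 for Klf4, at 8.53, 8.35 and 8.35. Foxo1 came closest, at 11.19, 11.46 and 11.38, all below resting wild-type cells (-0.37 ± 0.14, adjusted p = 0.0677), and passed with the replicate number as a block (adjusted p = 0.0395). The other 2 Foxo1 probe sets above the floor passed too, at -0.46 (adjusted p = 0.0384) and -0.51 (adjusted p = 0.0187). So did 2 of the other Foxp1 probe sets, with means of 11.10 and 10.90 in resting knockout cells against 11.57 and 11.35 in resting wild-type cells. The main Foxp1 probe set, at -0.17 ± 0.10, did not. Bach2 (-0.27 ± 0.13, adjusted p = 0.138) passed without the resting knockout array 3 (-0.43, adjusted p = 0.0203), a setting in which Lef1 did not pass. Beside these values, the resting knockout arrays carried 3094 to 10582 of summed erythroid signal against 129 to 1186 in resting wild-type cells, and the knockout array numbered 1, with the most, held the lowest value of its group for 8 of the 9 genes. On that array neutrophil markers summed to 13523, macrophage markers to 16742 and T cell markers to 42877. On resting knockout arrays 2 and 3 the sums were 3172 and 2822, 5643 and 5820, and 57345 and 56407. Whether the other cell types or the lower T cell marker sum take part in the genotype differences was not tested. After stimulation the 8 differences ran from -0.27 ± 0.27 for Il7r to 0.48 ± 0.26 for Klf2 (adjusted p = 0.403), and the erythroid markers were all under log2 4. Neutrophil markers summed to 1849, 86.8 and 116.5 on the stimulated knockout arrays, against 41.9 to 59.7 in stimulated wild-type cells. Their part was not tested. Stimulated knockout cells read 11.04, 11.79 and 11.87 for Klf2, the lowest on the array numbered 1. On arrays 2 and 3 alone, a setting not planned beforehand, Klf2 was higher in knockout cells (0.65, adjusted p = 0.00291).

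With XCT790 in place of stimulation alone, 7 of the 9 genes were higher than in stimulated wild-type cells and none was lower. In this comparison 66.0% of all tested genes passed, 29.1% higher and 36.9% lower. The members' median was 0.76, against -0.06 over all tested genes, and the arrays did not overlap for 8 of the 9, as for 75.7% of all tested genes. T cell markers went the other way, 4 of 8 lower than in stimulated cells. Of the 9 genes, Tob1 had the largest difference. It read 10.20, 9.96 and 9.84 with XCT790, 3.01-fold above stimulated cells (1.59 ± 0.14, adjusted p = 2.94e-07). Btg1 read 13.58, 13.51 and 13.52, 2.00-fold above (1.00 ± 0.07, adjusted p = 4.4e-08).

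Klf4 with XCT790 read 6.25, 5.40 and 5.34, clear of the stimulated arrays and of the resting ones (1.49 ± 0.24, adjusted p = 7.67e-05). Its second probe set was under log2 4 on all 3 stimulated arrays and on the XCT790 arrays 2 and 3, and gives no measured difference here. The array with the highest Klf4 also had the highest summed neutrophil signal of the XCT790 arrays, 144 against 55.1 and 58.3, and the macrophage sums were 56.6, 47.5 and 47.7; their part was not tested. Klf2 read 11.31, 11.95 and 11.83, all above stimulated cells, yet its difference of 0.61 ± 0.26 missed the threshold (adjusted p = 0.0533) and passed with the replicate number as a block (adjusted p = 0.0045).

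Foxp1 read 12.68, 12.88 and 12.94 with XCT790, above every array of the 5 other groups. It was 1.81-fold above stimulated cells (0.86 ± 0.10, adjusted p = 5.48e-06) and 1.43-fold above resting cells (0.52 ± 0.10, adjusted p = 0.000447). Bach2, already higher after stimulation, read 12.83, 13.00 and 12.96, 1.70-fold above stimulated cells (0.76 ± 0.13, adjusted p = 9.98e-05) and 2.49-fold above resting cells. Smaller differences were those of Lef1, at 8.49, 9.21 and 9.20 (0.63 ± 0.20, adjusted p = 0.0127), and Foxo1, at 10.30, 10.13 and 10.21 (0.38 ± 0.14, adjusted p = 0.0242). The Lef1 call was lost without the XCT790 array numbered 2 or 3 (0.51 in both cases), and the Foxo1 call without the stimulated array 1 or the XCT790 array 1 or 3 (0.27 to 0.38). The other Foxo1 probe sets gave 0.17 and -0.01 and did not pass. Il7r, at 9.85, 8.57 and 9.10, overlapped stimulated cells (0.36 ± 0.27, adjusted p = 0.263); without the XCT790 array 2 its difference was 0.66 (adjusted p = 0.0373), and its second probe set gave 1.05 (adjusted p = 0.0349).

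**Figure D3:**
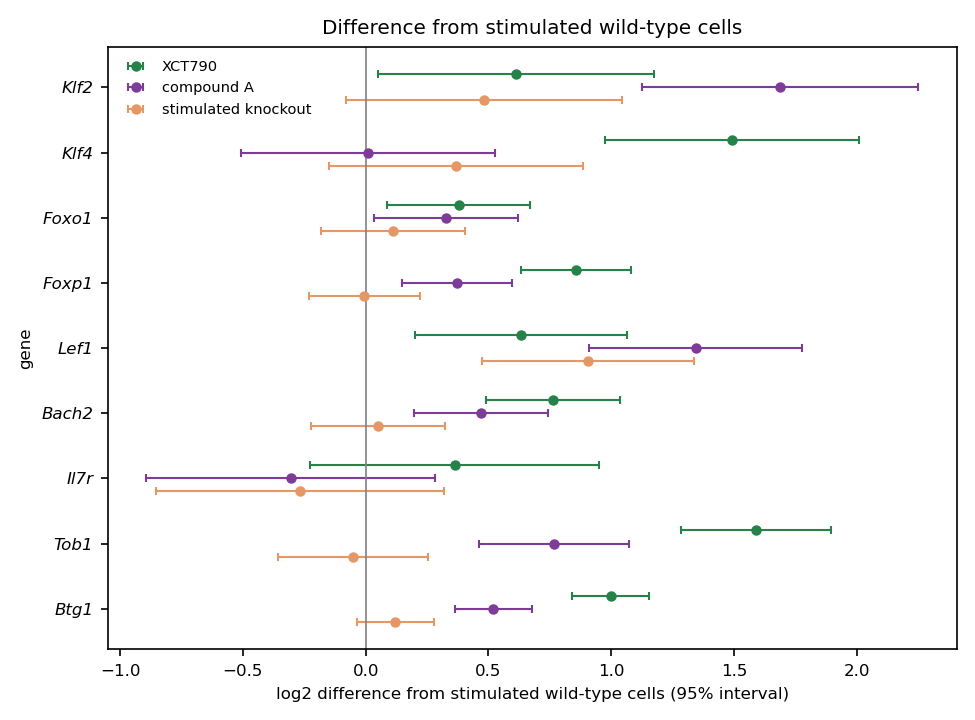
Log2 difference from stimulated wild-type cells (horizontal axis) of cells given XCT790 or compound A and of stimulated knockout cells, for the 9 measured genes (vertical axis), with unadjusted 95% intervals; the 3 sets share the stimulated wild-type arrays. Tob1 is at 1.59 with XCT790, 0.77 with compound A and -0.05 in knockout cells, while Klf2 is highest with compound A, at 1.69.

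Compound A gave another order. It left 6 of the 9 genes higher than stimulated wild-type cells and none lower, where 33.2% of all tested genes passed, 14.5% higher and 18.7% lower. The median was 0.47, against -0.03 over all tested genes, and the arrays did not overlap for 6 of 9, as for 57.4% of all tested genes. Klf2 read 12.17, 13.03 and 13.12, 3.22-fold above stimulated cells (1.69 ± 0.26, adjusted p = 0.000321). Lef1 read 9.56, 9.76 and 9.72, 2.54-fold above (1.34 ± 0.20, adjusted p = 0.000246). Against resting cells these 2 genes overlapped and did not pass, with differences of -0.22 (unadjusted 95% interval -0.78 to 0.34) and -0.07 (-0.50 to 0.36).

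Tob1 with compound A, at 9.20, 9.18 and 9.15, lay between stimulated and resting cells without overlap (0.77 ± 0.14 above stimulated, adjusted p = 0.00119). So did Btg1, at 12.99, 13.05 and 13.14 (0.52 ± 0.07, adjusted p = 0.000152). Bach2 read 12.86, 12.57 and 12.49 (0.47 ± 0.13, adjusted p = 0.0116) and lost the call without compound A array 1 (0.36). Foxp1 read 12.40, 12.38 and 12.26 (0.37 ± 0.10, adjusted p = 0.0142) and lost it without compound A array 2 (0.36) or stimulated array 1 (0.32), and with its second brightest probe set (0.25, adjusted p = 0.0824). Of its other 5 probe sets 1 passed (0.40, adjusted p = 0.00248) and 4 did not, at 0.10, 0.21, 0.31 and 1.26. The genes that did not pass were Klf4, at 4.19, 4.26 and 4.08 (0.01 ± 0.24, interval -0.51 to 0.53), Il7r, at 8.15, 8.75 and 8.62 (-0.31 ± 0.27, interval -0.89 to 0.28), and Foxo1. Foxo1, at 9.87, 10.34 and 10.28, was 0.33 ± 0.14 above stimulated cells (adjusted p = 0.0792) and passed with the replicate number as a block (adjusted p = 0.0457).

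The 2 inhibitors, given at the same 20 µM, were compared directly. Of the 9 genes, 4 were higher with XCT790 and 2 higher with compound A, where 52.6% of all tested genes passed, 24.8% higher with XCT790 and 27.8% higher with compound A; the arrays did not overlap for those 6, as for 63.5% of all tested genes. XCT790 gave the higher signal for Klf4 (1.48 ± 0.24, adjusted p = 0.00014), Tob1 (0.82 ± 0.14, adjusted p = 0.000246), Foxp1 (0.48 ± 0.10, adjusted p = 0.00139) and Btg1 (0.48 ± 0.07, adjusted p = 7.96e-05). Compound A gave the higher signal for Klf2, 2.11-fold (XCT790 minus compound A -1.08 ± 0.26, adjusted p = 0.00319), and for Lef1, 1.64-fold (-0.71 ± 0.20, adjusted p = 0.00842). T cell markers were also lower with XCT790 than with compound A, 6 of 8 tested, with a median of -0.56; their part in the Klf2 and Lef1 differences was not tested. For Foxo1 the difference was 0.05 with an unadjusted 95% interval of -0.24 to 0.34. Il7r (0.67 ± 0.27, adjusted p = 0.0536) and Bach2 (0.29 ± 0.13, adjusted p = 0.0671) missed the threshold, and both calls turned on single arrays and settings. Il7r passed without the XCT790 array 2 (0.97, adjusted p = 0.00647) or the compound A array 2 (0.79, adjusted p = 0.04996), with a floor of log2 6, with its probe sets averaged, with arrays shifted to 1 median, and with a trended prior or array weights; over all its alternatives the adjusted p ran from 0.00155 to 0.413. Bach2 passed without the compound A array 1 (0.40, adjusted p = 0.0222) and on arrays 2 and 3 alone, a setting not planned beforehand. It also passed with arrays shifted to 1 median, and with a trended prior or array weights. Over all its alternatives the adjusted p ran from 6.62e-05 to 0.224.

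How much of the fall with stimulation was absent with an inhibitor was expressed, for the 7 genes that fell by more than Foxp1 did, as the inhibitor's height above stimulated cells in percent of the fall; the measures share the stimulated wild-type arrays. With XCT790 the value was 91.1% for Btg1 (89.3 to 92.6% when each array was left out in turn), 72.6% for Tob1 (68.0 to 76.4%) and 44.8% for Lef1 (36.2 to 61.7%). Klf4 stood at 38.5% (30.9 to 42.6%), Klf2 at 32.0% (25.3 to 42.2%), Foxo1 at 20.1% (15.1 to 23.4%) and Il7r at 7.96% (0.544 to 14.6%). The Klf2 and Il7r differences from stimulated cells had not passed, nor had those of the other Foxo1 probe sets. All 7 tested macrophage markers fell beside Klf4 with stimulation, and their part in its percentage was not tested. With compound A it was 95.2% for Lef1 (91.7 to 99.3%) and 88.5% for Klf2 (79.2 to 104%), then 47.5% for Btg1, 35.1% for Tob1 and 17.5% for Foxo1. Klf4, at 0.227% (-1.18 to 1.99%), and Il7r, at -6.73% (-9.40 to -2.76%), overlapped stimulated cells. Among these 7 genes, those nearest to resting cells on this scale were thus Btg1 and Tob1 with XCT790 and Lef1 and Klf2 with compound A. Both ends of the scale are untreated wild-type arrays, and the inhibitor arrays lie across the spike-in split from them. Stimulated knockout cells, on the inhibitors' side, averaged 9.24 for Lef1, against 8.34 in stimulated wild-type cells and 9.68 with compound A. The part of the split in these percentages was not tested.

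Set against resting wild-type cells, XCT790 left 6 genes lower and Foxp1 and Bach2 higher, where 71.9% of all tested genes passed, 33.6% higher and 38.3% lower. Btg1 did not pass (-0.10 ± 0.07, adjusted p = 0.244), although its XCT790 arrays were all below the resting ones; the arrays did not overlap for any of the 9 genes, as for 76.5% of all tested genes. Compound A left 5 genes lower and Bach2 higher (1.02 ± 0.13), where 69.7% passed, 32.6% higher and 37.1% lower, and the arrays did not overlap for 6 genes, as for 78.1% of all tested genes. Foxp1 with compound A was 0.03 from resting cells (unadjusted 95% interval -0.19 to 0.26). Il7r remained 18.2-fold below resting cells with XCT790 and 28.9-fold below with compound A, and Foxo1 2.83-fold and 2.93-fold.

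Stimulated knockout cells serve as another reference for the inhibitors, 1 on the same side of the spike-in split; this comparison was chosen after the data were seen. XCT790 exceeded them for Tob1 (1.64 ± 0.14), Klf4 (1.12 ± 0.24), Btg1 (0.88 ± 0.07), Foxp1 (0.86 ± 0.10) and Bach2 (0.71 ± 0.13), where 65.2% of all tested genes passed, 31.3% higher and 33.9% lower. Compound A exceeded them for Klf2 (1.21 ± 0.26), Tob1 (0.82 ± 0.14), Bach2 (0.42 ± 0.13), Btg1 (0.40 ± 0.07) and Foxp1 (0.38 ± 0.10), where 26.1% passed, 14.1% higher and 12.0% lower. Lef1, Il7r and Foxo1 passed with neither inhibitor. Lef1 differed by -0.27 ± 0.20 with XCT790, at an adjusted p of 0.254, and by 0.44 ± 0.20 (adjusted p = 0.124) with compound A. Il7r differed by 0.63 ± 0.27 (adjusted p = 0.0559) and -0.04 ± 0.27 (adjusted p = 0.949). Foxo1, which had passed with XCT790 against stimulated wild-type cells, differed by 0.27 ± 0.14 (unadjusted 95% interval -0.03 to 0.56) with XCT790 and 0.22 ± 0.14 (adjusted p = 0.261) with compound A. Klf2 did not pass with XCT790 (0.13 ± 0.26, adjusted p = 0.691), nor Klf4 with compound A (-0.36 ± 0.24, adjusted p = 0.296). Esrra itself was 5.06 to 5.14 with XCT790 and 5.10 to 5.12 with compound A.

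The order of the groups differed from gene to gene. Il7r and Foxo1 fell into a resting pair above 4 groups whose neighbours overlapped, and in both genes resting wild-type cells lay above resting knockout cells without overlap. Klf2 fell into resting cells and compound A above, and XCT790 and both stimulated groups below, with overlap between neighbours within each set. Foxp1 was highest with XCT790, and its 5 other groups overlapped from neighbour to neighbour. For Lef1, resting knockout cells were highest, resting wild-type cells and compound A followed and overlapped, then stimulated knockout cells and XCT790, which overlapped, and stimulated wild-type cells alone were lowest. Bach2 ran from XCT790 and compound A, through both stimulated groups, to both resting groups, with overlap within each pair and none between pairs. For Klf4 both resting groups overlapped, and XCT790 came next alone. Stimulated knockout cells followed, overlapping stimulated wild-type cells but not compound A, and these last 2 groups overlapped at the bottom. Tob1 and Btg1 both had compound A alone between the groups above and the stimulated cells, and in both, resting wild-type cells stood apart from XCT790 and resting knockout cells overlapped it.

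Over the 18 arrays, which are 6 groups of 3 normalized together, the genes followed each other in sets, given here as a description. Pearson's r was 0.97 between Tob1 and Btg1, 0.97 between Il7r and Foxo1, 0.96 between Klf4 and Il7r, and 0.86 between Klf2 and Lef1. It was -0.81 between Il7r and Bach2. Among all tested genes, those most like each member had r between 0.91 and 0.99: Pdlim1 and Cirbp for Klf2, Cmah and S1pr1 for Lef1, Tnk2 and Gpr155 for Il7r, and Ppp1r21 and Mark2 for Foxo1. For Foxp1 they were Tax1bp1 and Taf4, for Bach2 Mapkbp1 and Slc30a6, for Tob1 Numa1 and Map3k1, and for Btg1 Rps6ka3 and Ypel5. S1pr1, next to Lef1, encodes the receptor for exit from lymph nodes that KLF2 is known to sustain.

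Second probe sets gave a check within the arrays. Klf4, Il7r and Btg1 had 1 other each, Foxo1 had 3 and Foxp1 had 6; of these 12, 1 of Foxo1 stayed under log2 4 on every array. For stimulation of wild-type cells all 11 others had the sign of the main probe set, and 6 had the same call. The rest, all of Foxp1, did not pass. Against stimulated cells 10 could be compared, since the second Klf4 probe set was under log2 4 on average in both groups; 9 had the same sign with either inhibitor, and 7 had the same call with XCT790 and 5 with compound A. None passed in the opposite direction in any comparison. Foxp1 passed with XCT790 on all 7 of its probe sets, at 0.62 to 1.91.

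**Figure D4:**
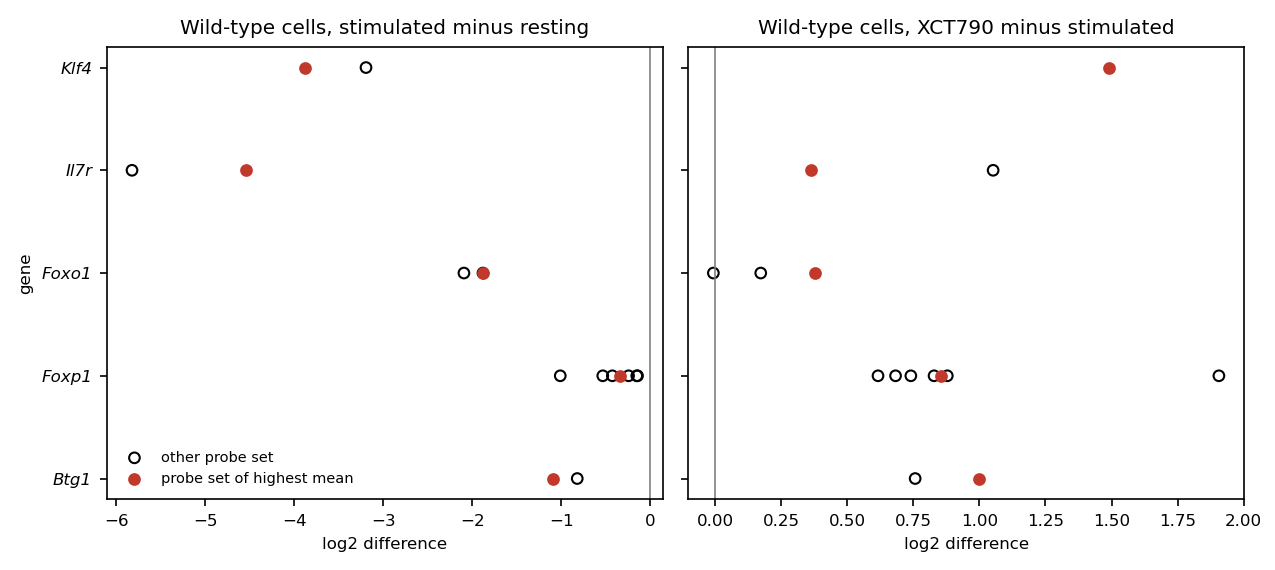
Log2 difference (horizontal axis) of every probe set with a group mean of at least log2 4 in that comparison, for the 5 genes with more than 1 (vertical axis), for stimulation of wild-type cells and for XCT790 against stimulated cells; filled points are the probe sets of highest mean. The 6 other Foxp1 probe sets lie between -1.01 and -0.14 on the left and between 0.62 and 1.91 on the right. The second Klf4 probe set is left out on the right, where both group means are under log2 4.

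The genes around these regulators were read from 9 lists. Their counts stand beside those over all tested genes: 37.0% higher and 38.4% lower with stimulation of wild-type cells, and, against stimulated cells, 29.1% and 36.9% with XCT790 and 14.5% and 18.7% with compound A. A list whose share is near these does not stand apart from other genes. The lists, like the members, were chosen with earlier results of these data known, so a share away from these is a description. Of 13 tested FOXO1 and KLF2 target genes, stimulation of wild-type cells lowered 11 and raised 1, with a median difference of -2.38. Txnip, which restrains glucose uptake, changed by -3.53 ± 0.11, Klf3 by -2.79 ± 0.12, Sesn1, a stress-induced inhibitor of mTORC1, by -2.67 ± 0.11, and Cdkn1b, the cyclin-dependent kinase inhibitor p27, by -2.38 ± 0.08. Compared with stimulated cells, XCT790 raised 9 of the 13 and lowered 1 (median 1.01), and compound A raised 10 and lowered none (median 0.72). Cdkn1b was 2.18 ± 0.08 higher with XCT790 and 0.85 ± 0.08 higher with compound A. Txnip did not pass with either (0.20 ± 0.11 and 0.19 ± 0.11), and Klf3 passed with compound A alone (0.68 ± 0.12; 0.12 ± 0.12 with XCT790), the direct difference being -0.57 ± 0.12 (adjusted p = 0.00109).

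Upstream of FOXO1, 2 of 11 tested kinases and phosphatases rose and 5 fell with stimulation, 7 of 11 passing where 75.4% of all tested genes did. Sgk1, a kinase that phosphorylates FOXO proteins, changed by -4.82 ± 0.17, Pik3r1, the regulatory subunit of PI3K, by -2.58 ± 0.17, and Inpp5d, the phosphatase SHIP1, by -1.98 ± 0.16, while Akt2 rose by 0.94 ± 0.08. With XCT790, 6 were higher and 2 lower than in stimulated cells, among them Sgk1 (1.67 ± 0.17), Pik3r1 (0.93 ± 0.17) and Akt2 (-0.67 ± 0.08). With compound A, 3 were higher and 2 lower, Akt2 being lower (-0.38 ± 0.08) and Sgk1 not passing (0.17 ± 0.17).

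Relatives of the members fell too: 10 of 12 tested with stimulation, and none rose. Btg2, a close relative of Btg1, changed by -2.58 ± 0.26 and was higher than in stimulated cells by 1.15 ± 0.26 with XCT790 and by 0.83 ± 0.26 with compound A. Klf13 changed by -1.86 ± 0.11 and passed with compound A (0.40 ± 0.11) but not XCT790 (-0.04 ± 0.11), with a direct difference of -0.44 ± 0.11 (adjusted p = 0.00334). Klf7 changed by -1.56 ± 0.13 and was 1.77 ± 0.13 higher with XCT790 than in stimulated cells. Either inhibitor raised 5 of the 12 and lowered none.

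The deadenylase partners of TOB1 and BTG1 did not share 1 direction: 3 of 11 rose and 6 fell with stimulation (median -0.23), again beside 75.4% of all tested genes passing. Cnot6l, a catalytic subunit, changed by -1.27 ± 0.07 and Pan2, of the other deadenylase complex, by -1.12 ± 0.14, while Cnot9 rose by 0.73 ± 0.09 and Prmt1, an arginine methyltransferase that binds BTG1, by 1.59 ± 0.09. XCT790 gave 7 higher and 2 lower than in stimulated cells, with Pan2 at 1.15 ± 0.14 and Cnot6l at 0.62 ± 0.07, and compound A 2 and 2.

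Downstream of Il7r, 6 of 12 partners and signalling genes rose and 3 fell with stimulation, a share like the 75.4% over all tested genes. Cish, an inhibitor of cytokine signalling, rose by 2.99 ± 0.17, Stat5a by 2.65 ± 0.23 and Pim1, a survival kinase, by 1.13 ± 0.09, while Jak1, the kinase bound to the receptor chain, changed by -1.34 ± 0.12. XCT790 gave 4 higher and 3 lower, with Cish at -1.02 ± 0.17, and compound A 3 and 1, with Jak1 at 0.49 ± 0.12.

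Cofactors and targets of TCF1 and LEF1 fell with stimulation in 10 of 14 cases, and 1 rose (median -1.06). Nsg2 changed by -3.26 ± 0.21, the corepressors Tle5 and Tle4 by -2.08 ± 0.12 and -1.76 ± 0.12, and Dgka, a diacylglycerol kinase that damps receptor signalling, by -2.02 ± 0.11. XCT790 gave 8 higher and 3 lower than in stimulated cells, with Tle5 at -0.69 ± 0.12, and compound A 4 higher and none lower, with Nsg2 at 0.86 ± 0.21 and Dgka at 0.69 ± 0.11.

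Partners and repressed genes of BACH2 rose in 6 of 10 cases with stimulation and fell in 3. The granzyme Gzmb rose by 3.96 ± 0.30 and the small MAF protein Mafg, a BACH partner, by 2.10 ± 0.14, while Hmox1 changed by -3.85 ± 0.31 and S100a4 by -4.85 ± 0.49. Gzmb was lower than in stimulated cells with XCT790 (-3.80 ± 0.30) and with compound A (-1.80 ± 0.30), in which Bach2 was higher. With stimulation itself Bach2 rose too, by 0.56 ± 0.13, beside the rise of Gzmb. A link between these 2 genes was not tested. XCT790 gave 3 higher and 5 lower in this list and compound A none higher and 4 lower.

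Among 12 other quiescence factors, 9 fell and 1 rose with stimulation. Dtx1, an anergy gene, changed by -7.49 ± 0.31, Zfp36l2, an mRNA decay factor, by -2.96 ± 0.12, the receptor Tgfbr2 by -2.31 ± 0.16 and Ets1 by -0.93 ± 0.07. XCT790 gave 8 higher and 3 lower than in stimulated cells, with Zfp36l2 at 1.50 ± 0.12 and Tgfbr2 at 1.48 ± 0.16, and compound A 8 and 1, with Tgfbr2 at 0.90 ± 0.16. All 14 T cell activation and growth genes rose with stimulation (median 2.21), Il2 by 6.79 ± 0.28, Irf4 by 5.76 ± 0.28, Tnfrsf9 by 3.64 ± 0.18 and Myc by 2.25 ± 0.10. With XCT790, 4 of these were higher and 3 lower than in stimulated cells, and with compound A none was higher and 5 lower. Myc was lower with both (-1.05 ± 0.10 and -0.45 ± 0.10), and Il2 did not pass with XCT790 (-0.32 ± 0.28) and was lower with compound A (-0.93 ± 0.28). Against resting cells, 12 and 13 of the 14 were higher with XCT790 and compound A.

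**Figure D5:**
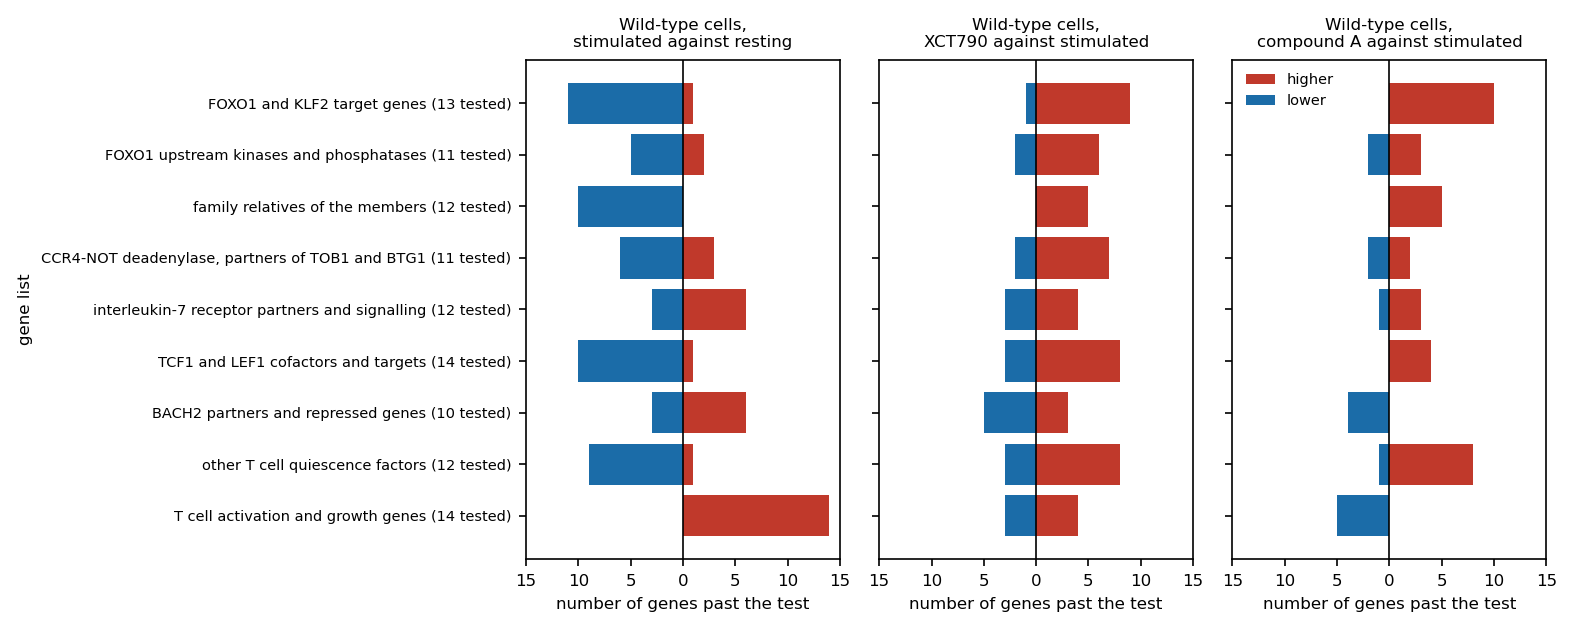
Number of genes of each list (vertical axis, with the number tested) that passed higher (right of 0) or lower (left of 0), in 3 comparisons of wild-type cells that share arrays. The activation and growth genes are 14 higher and 0 lower with stimulation, and the FOXO1 and KLF2 targets 11 lower and 1 higher, against 10 higher and 0 lower with compound A.

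Between resting genotypes 20 of the 107 tested genes of the 9 lists passed, 2 higher and 18 lower in knockout cells; that is 18.7%, near the 19.0% of all tested genes. Those outside the rule for named genes are given because they passed. In stimulated cells 1 of the 107 did, 0.935% against 2.18% of all tested genes: Klf6, a relative of Klf2 and Klf4, was higher in knockout cells by 0.94 ± 0.16 (adjusted p = 0.00605). At rest the background was 6.74% higher and 12.3% lower. Of the 14 cofactors and targets of TCF1 and LEF1, 4 were lower in resting knockout cells, in which Lef1 was higher: Axin2, a classic target of the WNT pathway (-0.96 ± 0.31), Apc (-0.39 ± 0.12), Tle4 (-0.39 ± 0.12) and Dgka (-0.34 ± 0.11). Of the 13 FOXO1 and KLF2 targets, 3 were lower: Tsc22d3 (-0.67 ± 0.19), Sesn3 (-0.54 ± 0.11) and Txnip (-0.41 ± 0.11). The deadenylase subunits Cnot8 (-0.45 ± 0.09), Cnot4 (-0.33 ± 0.07) and Cnot6l (-0.24 ± 0.07), the interleukin-7 signalling genes Cish (-0.69 ± 0.17) and Mcl1 (-0.23 ± 0.07), the relatives Foxp3 (-0.90 ± 0.29) and Klf13 (-0.34 ± 0.11), and Ikzf1 (-0.43 ± 0.14) were also lower.

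In the activation list, resting knockout cells had lower Il2ra (-0.82 ± 0.23), Tnfrsf4 (-0.73 ± 0.18) and Tnfrsf9 (-0.65 ± 0.18), and higher Tfrc (1.24 ± 0.29) and Odc1 (0.60 ± 0.18). Il2ra and Foxp3 are also markers of regulatory T cells, of which 2 of 4 tested were lower in resting knockout cells. Tfrc, the transferrin receptor, is abundant in erythroid precursors, whose 4 tested markers were all higher there. The part of those cells in these differences was not tested.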

How the data were processed

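CD4+ T cells of 6 groups were measured on 18 arrays, 3 per group, grouped by the labels. The deposited log2 values per probe set were made by the authors with GCRMA, per the submitters' processing notes; it corrects background by probe sequence. Sorted, the 18 columns are identical (lowest 1.83, median 3.55, highest 15.4), so quantile normalization followed the summary and a shift shared by all genes is not visible. From the 22690 probe sets, those of controls (64), of no gene (1555) and of several genes (691) were dropped. Each gene was read from its brightest probe set and tested where that reached log2 4 on at least 3 arrays. A single limma model (version 3.58.1, R 4.3.3) of the 6 group means gave all 10 comparisons, without a block, with two-sided tests and with 2.22 prior beside 12 residual degrees of freedom; the script was tested on simulated data. Folds are powers of the log2 difference. The number of arrays limits the precision.

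Members and lists were chosen with earlier results of these data known. Genes named beyond the members were Esrra, the 4 of each list with the smallest adjusted p for stimulation of wild-type cells, and the 2 most correlated with each member. Same-numbered arrays deviated together, with correlations over 0.1 for every pair, between genotypes, between knockout states and between each inhibitor and stimulated cells, so a replicate block was fitted there too. Other alternatives were floors, probe set choices, a common median, weights, priors, separate fits and leaving out arrays. A comparison of protein sequences was not made here.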

Additional observations from a re-analysis of the deposited data

How the results depend on the processing

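Over 29 settings, 1445 of 1512 recomputed differences of members kept their direction and side of the threshold, or changed sign where neither value passed (42 of them); 27 lost the call, 39 gained it and 1 turned. The turn was Lef1 with XCT790, -0.27 with stimulated knockout cells as the reference, a reference chosen after the data were seen and not the same contrast. Genes that passed between resting genotypes, 1 of 9, were 2 with the mean of all probe sets, with the replicate block, with array weights, on arrays 2 and 3 alone and with the second brightest probe sets, and 0 in a fit of the compared groups alone. Between stimulated genotypes, 1 of 9 became 0 with dim genes kept or with only those 2 groups fitted, and 2 with array weights or on arrays 2 and 3. For the interaction, 0 became 2 with array weights and on arrays 2 and 3. The settings with arrays 2 and 3 alone and with the second brightest probe sets were not planned beforehand. Leaving out 1 array gave 9 for stimulation in wild-type and 8 in knockout cells, 0 to 1 between genotypes in either state, 0 for the interaction, 5 to 7 for XCT790 and 5 to 6 for compound A against stimulated cells, 6 to 7 between inhibitors, and 8 and 6 against resting cells. Without the resting knockout array 3, the gene that passed between resting genotypes was Bach2 and not Lef1. The replicate block gained Klf2 with XCT790, Foxo1 with compound A and Foxo1 between resting genotypes, and changed no other member's call. Shifting arrays to a common median moved the median of all genes by at most 0.099. The array weights stopped short of their convergence tolerance. The causes were not tested.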
